A study of Mus musculus with 44 samples.

Results

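T cell receptor beta chains that carry Trbv1, the variable gene formerly called Vβ2, were examined in bulk RNA from B16F10 melanoma tumours. The deposited table holds no V gene call, so members were chosen from the amino acid CDR3 alone: a start of Cys-Thr-Cys and one of 12 germline Trbj endings. Of 72765 distinct TRB CDR3s found with these endings, 4863 were members, and all 44 tumours held at least 1. Counted once per tumour there were 5585 Trbv1 entries of 95913 TRB entries, with 148227 of 6301600 TRB reads.

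The tumours grew under the skin of wild-type C57BL/6 mice (C57BL/6J in the study's methods) and were taken on day 12, with 1 library per tumour. There were 15 tumours treated with AC484, a small molecule that inhibits the phosphatases PTPN2 and PTPN1, 15 treated with anti-PD-1, an antibody that blocks the inhibitory receptor PD-1, and 14 labelled vehicle, a group that the study's methods describe as untreated. Whole tumour tissue was used, so the T cells of a tumour were not sorted by subset. TRB reads per tumour ran from 32948 to 407156 after AC484, from 58534 to 399662 after anti-PD-1 and from 5060 to 188185 after vehicle.

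A beta chain is made by joining a V, a D and a J gene, with bases trimmed and added at both joints, and the CDR3 is the loop that spans these joints and meets the peptide. Trbv1 is the most upstream gene of the mouse Tcrb locus on chromosome 6 and stands well apart from the cluster of other Trbv genes, whereas Trbv31 lies beyond the D, J and constant genes in the opposite orientation. Beta chains with Trbv1 occur on conventional CD4+ and CD8+ T cells and on some invariant natural killer T cells. In bulk tumour RNA, more T cells with a chain and more chain RNA per cell cannot be told apart.

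In the GRCm38 (mm10) annotation Trbv1 (ENSMUSG00000076461.2) spans chr6:40891229-40891885 on the plus strand. The next annotated Trbv gene, Trbv2, starts 155 kb further on, and Trbd1 lies 641 kb away. The germline bases that open the CDR3 are given for Trbv1 and for 3 other Trbv genes with a CDR3 start of their own, because these bases are what set members apart. They were read 5′ to 3′ from the RefSeq GRCm38 sequence, and capitals mark the codons of the first 3 residues.

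Trbv1: TGCACCTGCagtgcaga
Trbv13-2: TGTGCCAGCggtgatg
Trbv20: TGTGGTGCTaggga
Trbv31: TGTGCCTGGagtctca

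These bases lie at chr6:40891869-40891885 for Trbv1, chr6:41121817-41121832 for Trbv13-2, chr6:41188964-41188977 for Trbv20 and, on the minus strand, chr6:41557691-41557706 for Trbv31. Trbv1 was the sole gene among 22 functional Trbv genes whose CDR3 starts Cys-Thr-Cys, since the second codon encodes Thr and the third a Cys. Its whole germline end encodes CTCSA and leaves 2 further bases, ga, which open a codon for Asp or Glu.

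Most Trbv1 CDR3s kept the germline residues beyond those used to choose them. Ser stood at position 4 in 94.2% of the distinct CDR3s, and the whole end CTCSA was kept in 71.2%. Where position 5 was not Ala it was most often Gly, in 10.2% of all members. Behind a whole germline end the next residue was Asp in 31.5% and Glu in 8.69% of 3464 CDR3s, the residues that the leftover ga can start, while Gly, a residue often encoded by the Trbd genes, followed in 18.8%. A further Cys was found in 19 of 4863 CDR3s, or 0.391%.

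Trbv1 was the sixth most frequent of 15 classes of CDR3 start and the third of the 10 named for a single gene. It made up 5.76 ± 0.781% of the distinct TRB CDR3s of a tumour (SD, n = 44), against 9.49 ± 1.48% for Trbv13-2, 4.07 ± 0.717% for Trbv20 and 3.76 ± 0.759% for Trbv31. Of all TRB reads it held 2.35%, against 3.66% for Trbv13-2, 6.49% for Trbv20 and 3.96% for Trbv31. Across the 44 tumours, the classes whose share of distinct CDR3s ran most like that of Trbv1 were CDR3s with no germline start of at least 3 residues (Spearman's rho 0.37) and Trbv14 (0.33). These shares sum to 100% within a tumour and come from the same libraries, so the coefficients are a description. A class is named for its longest germline match, so chains of other genes with a CASS start can fall under Trbv13-2, Trbv14 or Trbv17. CASS starts that fit many genes alike formed an unresolved class with 46.9% of TRB entries.

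AC484 and anti-PD-1 tumours held more distinct Trbv1 CDR3s than vehicle tumours at an equal number of TRB reads. Each library was drawn 100 times to 5060 TRB reads, the total of the smallest. The number recovered was 20.2 at its lowest, 37.4 at the median and 70.4 at its highest after AC484, 16.4, 36.5 and 55.1 after anti-PD-1, and 5.6, 18 and 41.3 after vehicle. All 15 AC484 tumours and 14 of 15 anti-PD-1 tumours lay above the vehicle median, although the ranges overlapped. Means were 40.8 ± 12.3 after AC484 (SD, n = 15), 36.1 ± 11.2 after anti-PD-1 (n = 15) and 19.0 ± 12.1 after vehicle (n = 14). The difference from vehicle was 21.8 for AC484 (permutation test, adjusted p = 0.0019) and 17.1 for anti-PD-1 (adjusted p = 0.0085), whereas AC484 and anti-PD-1 differed by 4.74 (adjusted p = 0.52). P-values of the permutation tests of these per-tumour measures between treatments were two-sided and adjusted over 24 tests, except where called unadjusted or exact. Those of edgeR and of Fisher's exact test were adjusted over all features tested in the same comparison.

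The rise was not particular to Trbv1. At the same total, distinct TRB CDR3s of any start averaged 853 ± 272 after AC484, 651 ± 163 after anti-PD-1 and 374 ± 238 after vehicle. As a share of these, Trbv1 averaged 4.82 ± 0.599% after AC484 (n = 15), 5.48 ± 0.68% after anti-PD-1 (n = 15) and 5.15 ± 1.09% after vehicle (n = 14). The share was 0.33 percentage points lower after AC484 than after vehicle (permutation test, adjusted p = 0.52) and 0.663 points lower after AC484 than after anti-PD-1 (unadjusted p = 0.0086, adjusted p = 0.051), with 12 of 15 AC484 tumours below the anti-PD-1 median.

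**Figure D1:**
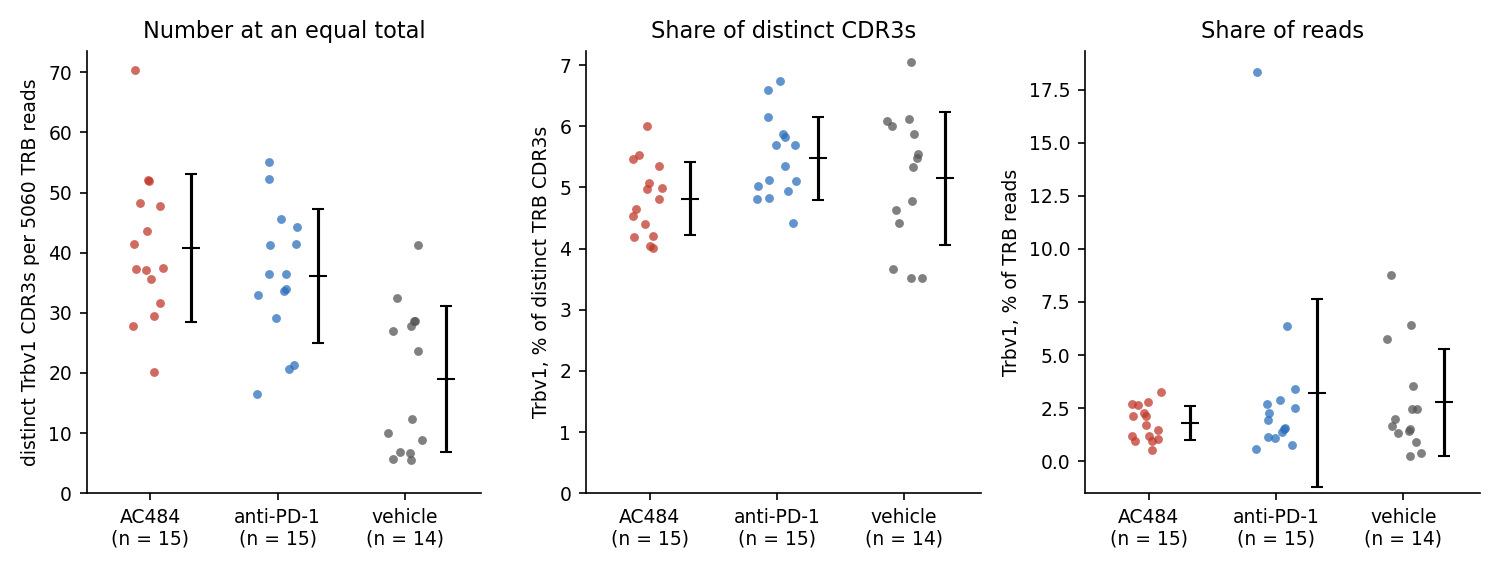
Trbv1 CDR3s in each tumour: distinct Trbv1 CDR3s at an equal total of 5060 TRB reads (left), Trbv1 as a percentage of distinct TRB CDR3s at that total (middle) and as a percentage of all TRB reads (right). Points are tumours, and black bars are the mean and SD. Vehicle tumours sit lowest in number, the 3 groups overlap in share, and the anti-PD-1 tumour at 18.4% of reads stands apart from the others.

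The lower share after AC484 than after anti-PD-1 was small and did not hold under every setting. With all reads used, Trbv1 made up 5.58 ± 0.566% of distinct TRB CDR3s after AC484, 6.30 ± 0.522% after anti-PD-1 and 5.38 ± 0.923% after vehicle. In edgeR's quasi-likelihood test on numbers of distinct CDR3s per start class, the log2 fold change of Trbv1 was -0.17 ± 0.06 (SE) for AC484 over anti-PD-1 (adjusted p = 0.023), where 3 of 14 classes were called, or 21.4%. It was 0.00 ± 0.08 for AC484 over vehicle (adjusted p = 0.98), where 7.14% of classes were called, and 0.17 ± 0.08 for anti-PD-1 over vehicle (adjusted p = 0.14), where 7.14% were called as well. The AC484 over anti-PD-1 call was lost with the index set of the library as a block (-0.11, adjusted p = 0.7) and without anti-PD-1 tumour 2 (-0.15, adjusted p = 0.051). It was also lost at an equal total (-0.14, adjusted p = 0.37).

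The index primers of the libraries followed treatment in part, and the labels do not say whether libraries of a set were prepared together. The libraries carried 4 index primer sets: set 1 held 12 vehicle tumours, set 2 held 10 anti-PD-1 and 2 vehicle tumours, set 3 held 7 AC484 and 5 anti-PD-1 tumours, and set 4 held 8 AC484 tumours. No set held AC484 and vehicle tumours together. Within set 2 the number of distinct Trbv1 CDR3s averaged 37.9 in 10 anti-PD-1 tumours and 18 in 2 vehicle tumours (difference 19.8, exact permutation p = 0.061). Within set 3 it averaged 39.9 in 7 AC484 tumours and 32.5 in 5 anti-PD-1 tumours (difference 7.43, exact permutation p = 0.28). In a fit of treatment and set together, AC484 exceeded vehicle by 27.3 ± 11.8 CDR3s (SE), with an exact permutation p of 0.023 and an adjusted p of 0.22. Sets 1 and 4 each held a single treatment, so this estimate joins the differences within sets 2 and 3. Its vehicle side rests on the 2 vehicle tumours of set 2.

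Trbv1 took a smaller share of reads than of CDR3s. Its share of TRB reads was 0.536% at its lowest, 1.69% at the median and 3.25% at its highest after AC484, 0.559%, 1.94% and 18.4% after anti-PD-1, and 0.23%, 1.84% and 8.79% after vehicle. The medians lay close together, and the widest ranges were those of anti-PD-1 and vehicle. Means were 1.8 ± 0.82% after AC484 (n = 15), 3.23 ± 4.42% after anti-PD-1 (n = 15) and 2.78 ± 2.52% after vehicle (n = 14), and none of the 3 differences passed the permutation test (adjusted p = 0.52 for AC484 against vehicle, 0.52 for AC484 against anti-PD-1 and 0.87 for anti-PD-1 against vehicle). Without anti-PD-1 tumour 14, the anti-PD-1 mean was 2.15 ± 1.47%, and the difference from vehicle was -0.631 percentage points in place of 0.449.

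Single Trbv1 CDR3s carried slightly fewer reads than other TRB CDR3s of the same tumour. The median Trbv1 entry had 4 reads and the median of other TRB entries 5, and 25.2% of Trbv1 and 23.9% of other entries rested on a single read. Entries with at least 1000 reads made up 0.269% of Trbv1 entries and 0.779% of the others. The mean log2 read number per CDR3 was lower for Trbv1 in 40 of 44 tumours, with a mean difference of -0.258 ± 0.548 (SD, sign-flip permutation p = 0.0022), which is a ratio of 1.2 in reads. Trbv13-2, the most frequent class named for a single gene, also lay below the other TRB CDR3s in 39 of 44 tumours, while Trbv20 and Trbv31 did so in 7 tumours each.

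The difference in reads was present in all 15 AC484 tumours (mean -0.307 on the log2 scale) and in all 15 anti-PD-1 tumours (mean -0.381). In vehicle tumours it averaged -0.0731 and did not pass the sign-flip permutation test (p = 0.78). Among the 14 vehicle tumours 4 had Trbv1 CDR3s with more reads than the others, and the highest value, 2.27, came from vehicle tumour 5, which held 6 Trbv1 CDR3s in all.

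**Figure D2:**
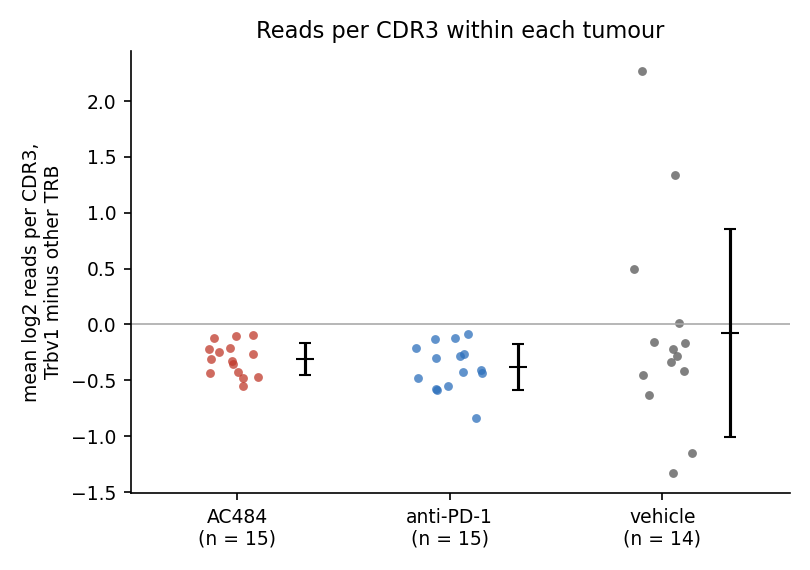
Mean log2 reads per Trbv1 CDR3 minus the mean of other TRB CDR3s of the same tumour, by treatment. Points are tumours, black bars are the mean and SD, and the grey line marks no difference. All AC484 and anti-PD-1 tumours lie below the line, and vehicle tumours spread from -1.33 to 2.27.

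The part of a tumour's Trbv1 reads held by its largest Trbv1 CDR3 varied widely. All reads were used, without a draw to an equal total. This part was 5.57%, 15.1% and 46.1% at the lowest, median and highest after AC484. It was 5.19%, 13.0% and 94.5% after anti-PD-1, and 9.64%, 33.2% and 79.5% after vehicle. The mean was 20.0 ± 12.9% after AC484 (n = 15) and 39.8 ± 21% after vehicle (n = 14), a difference of -19.8 percentage points (permutation test, adjusted p = 0.033). Anti-PD-1 tumours averaged 26.5 ± 27.6% and passed against neither group (adjusted p = 0.52 against vehicle and 0.65 for AC484 against anti-PD-1). Vehicle tumours also held the fewest Trbv1 CDR3s, 33.9 ± 26.9 per tumour against 211 ± 112 after AC484. The AC484 call was lost in 12 of 29 fits that left out a single tumour, where the difference stayed between -22.1 and -16.8. With index set as a block it was -23.4 (adjusted p = 0.44).

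A Trbv1 CDR3 was among the 10 largest TRB CDR3s in 0 of 15 AC484 tumours, 2 of 15 anti-PD-1 tumours and 4 of 14 vehicle tumours, and in none was it the largest. The CDR3 with the largest share of TRB reads was the same in the AC484 and the anti-PD-1 group and is shown for that reason. It opens with the 5 residues of the Trbv1 germline end and closes with Trbj1-1.

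AC484 tumour 3 and anti-PD-1 tumour 14: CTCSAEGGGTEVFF

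It held 1983 of 132356 TRB reads in AC484 tumour 3, or 1.5%. In anti-PD-1 tumour 14 it held 30068 of 173390 TRB reads, or 17.3%, and was the second largest TRB CDR3 there. Both libraries carried index primer set 3, and all 12 libraries of that set held this CDR3. In vehicle tumour 5 a Trbj2-2 CDR3 of 14 residues held 380 of 7238 TRB reads, or 5.25%, and was found in no other tumour.

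Trbv1 CDR3s were slightly longer than other TRB CDR3s. Within a tumour the mean length of distinct CDR3s was 14.4 ± 0.241 residues for Trbv1 and 14.1 ± 0.0563 for other TRB (SD, n = 44), a difference of 0.308 residues that was positive in 41 of 44 tumours (sign-flip permutation test, adjusted p = 0.00014 over 14 tests). Pooled over tumours, lengths ran from 9 to 20 residues, with 15 the most frequent for Trbv1 (30.4%) and 14 the most frequent for other TRB (29.8%). Trbv1 was longer with each of the 12 Trbj genes. With Trbj2-7 the means were 13.8 for Trbv1 and 13.7 for other TRB, and with Trbj1-6 they were 14.9 and 14.5. By start class, mean length was 14.4 for Trbv1 and ran from 13.3 to 14.6 for the other classes. It was 14.6 for the class of Trbv2, Trbv5 and Trbv21 and 14.4 for Trbv3, so longer CDR3s were not particular to Trbv1.

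**Figure D3:**
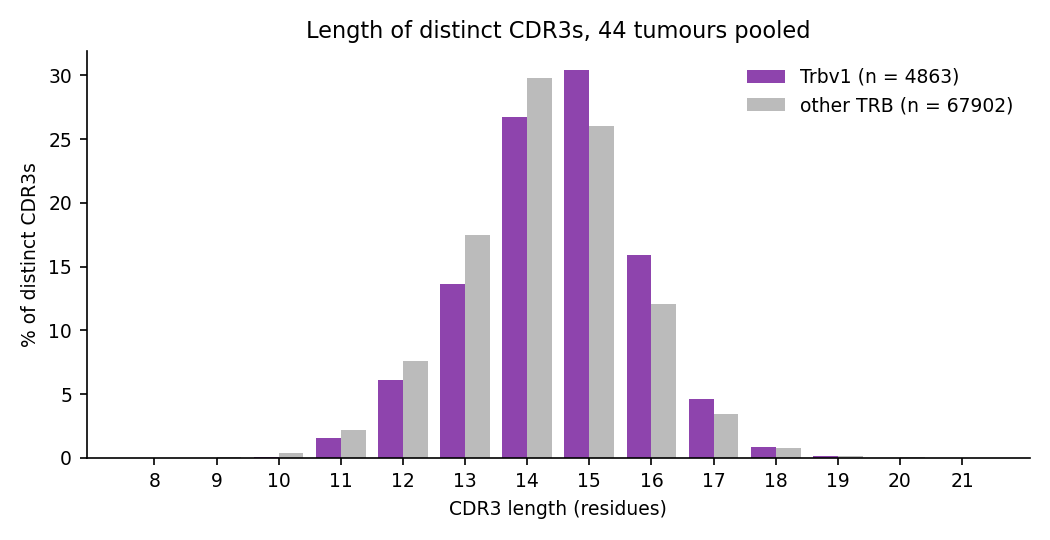
Length in residues of distinct CDR3s from all 44 tumours, as a percentage of 4863 Trbv1 CDR3s (purple) and of 67902 other TRB CDR3s (grey). The Trbv1 bars peak at 15 residues and the other TRB bars at 14.

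The length of Trbv1 CDR3s did not pass the test between treatments. It averaged 14.4 ± 0.132 residues after AC484 (n = 15), 14.4 ± 0.129 after anti-PD-1 (n = 15) and 14.3 ± 0.378 after vehicle (n = 14), with permutation adjusted p-values of 0.52 for both drugs against vehicle and 0.98 between them. The excess over other TRB was 0.333 residues in AC484 tumours (higher in 15 of 15), 0.341 in anti-PD-1 tumours (15 of 15) and 0.246 in vehicle tumours (11 of 14). In vehicle tumours alone it did not pass (sign-flip permutation test, adjusted p = 0.14). The share of CDR3s with the whole germline end averaged 73.3 ± 2.94% after AC484, 71.7 ± 7.34% after anti-PD-1 and 72.3 ± 9.83% after vehicle, and no difference between them passed (permutation test, adjusted p from 0.66 to 0.87).

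Trbv1 was joined to all 12 functional Trbj genes, and its use of 3 of them differed from that of other TRB chains. The Trbj genes lie in 2 clusters, each behind a Trbd gene and ahead of a constant gene. The germline bases of the 3 are shown, with capitals marking the codons of the ending that identifies each.

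Trbj1-2: aacTCCGACTACACCTTC
Trbj1-4: tccaacGAAAGATTATTTTTC
Trbj1-6: tcctatAATTCGCCCCTCTACTTT

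They were read from the plus strand of GRCm38 at chr6:41534001-41534018, chr6:41534811-41534831 and chr6:41535554-41535577. Trbj1-2 was used by 3.62 ± 2.4% of the distinct Trbv1 CDR3s of a tumour and by 6.21 ± 1.21% of other TRB CDR3s (SD, n = 44), and its share was lower for Trbv1 in 38 of 44 tumours (sign-flip permutation test, adjusted p = 0.00014). Trbj1-4 was used by 9.08 ± 4.79% of Trbv1 and 6.94 ± 0.93% of other CDR3s (higher for Trbv1 in 36 of 44 tumours, adjusted p = 0.004). Trbj1-6 was used by 4.91 ± 2.7% of Trbv1 and 3.27 ± 0.79% of other CDR3s (higher in 37 of 44, adjusted p = 0.0012). Of the 12 genes, 2 were thus called higher, or 16.7%, and 1 lower, or 8.33%.

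**Figure D4:**
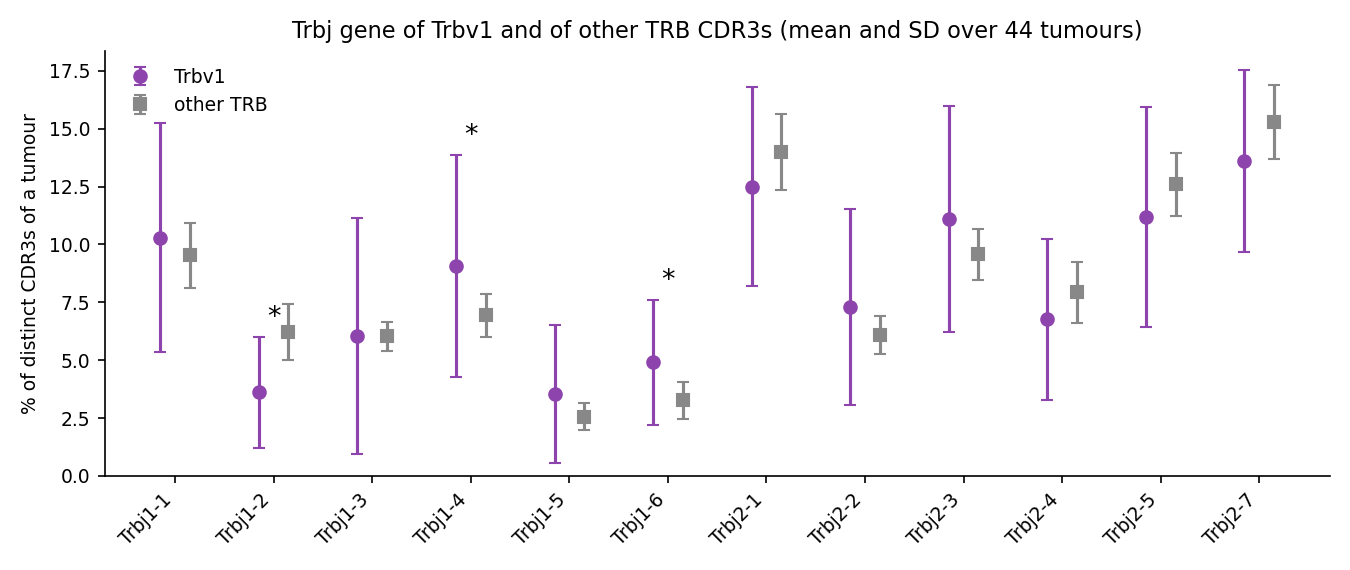
Trbj gene use of distinct Trbv1 CDR3s (purple circles) and other TRB CDR3s (grey squares) as a percentage of the distinct CDR3s of a tumour. Points and bars are the mean and SD over 44 tumours, and stars mark an adjusted p under 0.05 in the sign-flip test. Trbv1 lies below other TRB at Trbj1-2 and above it at Trbj1-4 and Trbj1-6.

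The other 9 Trbj genes did not pass. The largest shares were those of Trbj2-7, at 13.6 ± 3.92% for Trbv1 against 15.3 ± 1.59% for other TRB (adjusted p = 0.056 over the 44 tumours), and Trbj2-1, at 12.5 ± 4.31% against 14.0 ± 1.63% (adjusted p = 0.052). Trbj2-5 followed at 11.2 ± 4.76% against 12.6 ± 1.37%, Trbj2-3 at 11.1 ± 4.88% against 9.57 ± 1.1% and Trbj1-1 at 10.3 ± 4.95% against 9.53 ± 1.39%. Trbj2-2 stood at 7.29 ± 4.23% against 6.09 ± 0.838%, Trbj2-4 at 6.76 ± 3.48% against 7.93 ± 1.31%, Trbj1-3 at 6.06 ± 5.1% against 6.03 ± 0.622%, and Trbj1-5 at 3.53 ± 2.99% against 2.56 ± 0.586%. The Trbj2 cluster as a whole was used by 62.5 ± 8.01% of Trbv1 and 65.5 ± 2.1% of other TRB CDR3s, lower for Trbv1 in 34 of 44 tumours (sign-flip permutation test, adjusted p = 0.052). By start class, the pooled Trbj2 share was 62.9% for Trbv1 and ran from 60.3% for Trbv19 to 72.2% for the class of Trbv23 and Trbv30. It was 61.7% for Trbv23 and 62.6% for Trbv3, so a lower Trbj2 share was not particular to Trbv1.

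Within treatments, Trbj2-7 differed by -2.29 percentage points (Trbv1 minus other TRB) in AC484 tumours (lower in 15 of 15, sign-flip permutation test, adjusted p = 0.00043) and by -4.04 points in anti-PD-1 tumours (lower in 12 of 15, adjusted p = 0.0017), while in vehicle tumours the difference was 1.62 points (lower in 5 of 14, adjusted p = 0.59). In AC484 tumours alone Trbj2-1 (-1.65 points, adjusted p = 0.037), Trbj2-3 (1.38, adjusted p = 0.047) and Trbj1-5 (0.903, adjusted p = 0.016) passed the permutation test as well. Whether these differences differ between treatments was not tested.

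The 3 differences called over all tumours had the same direction in each treatment. Trbj1-2 was lower for Trbv1 by 1.76, 2.26 and 3.83 percentage points in AC484, anti-PD-1 and vehicle tumours, Trbj1-4 was higher by 1.11, 2.68 and 2.7 points, and Trbj1-6 was higher by 2.33, 1.74 and 0.789 points. In the 14 vehicle tumours alone none of the 3 passed (sign-flip permutation test, adjusted p = 0.14 for Trbj1-2 and 0.59 for the other 2). With CDR3s weighted by reads Trbj1-4 no longer passed (2.01 points, adjusted p = 0.71), and Trbj1-6 was lower for Trbv1 by 0.482 points (adjusted p = 0.88).

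The choice of Trbj gene by Trbv1 did not pass any test between treatments. The Trbj2 share was 55.7%, 62.5% and 71.8% at the lowest, median and highest after AC484, 50.8%, 62.3% and 69.1% after anti-PD-1, and 47.6%, 62.0% and 94.4% after vehicle, with the widest spread in vehicle tumours. Means were 62.3 ± 3.99% after AC484, 61.4 ± 5.49% after anti-PD-1 and 63.8 ± 12.6% after vehicle (permutation test, adjusted p from 0.69 to 0.82). In edgeR's test of each pair of start class and Trbj gene, 0 of the 12 Trbv1 pairs were called in each comparison, also with DESeq2 and in the other fits. Over all 129 pairs, 1.55% were called for AC484 against vehicle, 0.775% for AC484 against anti-PD-1 and 0% for anti-PD-1 against vehicle, where DESeq2 called 0 as well.

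At an unadjusted p under 0.05 in edgeR there were 0, 3 and 2 of the 12 Trbv1 pairs in these 3 comparisons, against 24, 19 and 22 of all 129 pairs. The 3 for AC484 over anti-PD-1 were Trbj1-4 (log2 fold change -0.43 ± 0.16, adjusted p = 0.11), Trbj2-5 (-0.36 ± 0.14, adjusted p = 0.13) and Trbj2-2 (-0.36 ± 0.18, adjusted p = 0.32). The 2 for anti-PD-1 over vehicle were Trbj1-1 (0.60 ± 0.25) and Trbj2-1 (0.50 ± 0.21), both with an edgeR adjusted p of 0.22.

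Few Trbv1 CDR3s recurred between tumours. Of 4863 distinct Trbv1 CDR3s, 463 were found in 2 or more tumours, or 9.52%, against 15.6% of other TRB CDR3s. Other classes named for a single gene ranged on either side of the 9.52% of Trbv1. Below it lay Trbv30 (4.35%), Trbv23 (4.75%) and Trbv31 (8.23%). Those above it included Trbv13-2 (12.3%) and Trbv20 (12.8%) and reached 20.2% for Trbv17. With counts under 1% of the same CDR3's largest count in any tumour removed (the setting called carry-over removed), the shares were 9.05% for Trbv1 and 14.4% for other TRB. Trbv1 CDR3s in 5 or more tumours numbered 28, or 0.576%, against 2.11% of other TRB CDR3s. Sharing was counted on amino acid CDR3s without a V gene call. The same CDR3 made with different V genes in 2 tumours therefore counts as shared. This can occur among CASS starts that fit many genes, a class shared more often than other TRB CDR3s as a whole. How far it widens the gap to Trbv1 was not tested.

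Shared Trbv1 CDR3s were shorter and kept more of the germline end. The share found in 2 or more tumours was 19.0% of CDR3s of 9 to 12 residues, 11.1% at 13 to 14 residues, 7.41% at 15 to 16 and 2.55% at 17 to 20. It was 11.3% of 3464 CDR3s with the whole germline end and 5.15% of 1399 without it. Of the 463 shared CDR3s, 187 were confined to tumours of 1 treatment, 245 were found in 2 treatments and 31 in all 3. This split was not made for other TRB CDR3s, so it describes the members alone. AC484 tumours held 370 of the 463 shared CDR3s, anti-PD-1 tumours 297 and vehicle tumours 103. These numbers ran in the order of the entries each group contributed (3162, 1949 and 474). As a share of a tumour's Trbv1 CDR3s the order was the reverse. With all reads used, the mean share was 19.7% after AC484, 23.1% after anti-PD-1 and 29.2% after vehicle.

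Pairs of tumours had few Trbv1 CDR3s in common. Of 946 pairs of tumours 363 shared no Trbv1 CDR3, and the median pair shared 1. The largest overlap, between AC484 tumours 7 and 10, was 16 CDR3s, or 3.52% and 3.71% of their Trbv1 CDR3s. Vehicle tumours held as few as 6 Trbv1 CDR3s, which limits what a pair can share. The same count was not made for other TRB CDR3s, so thin overlap is not shown to be particular to Trbv1. At an equal total, the share of a tumour's Trbv1 CDR3s also found elsewhere averaged 23.6 ± 5.66% after AC484 (n = 15), 25.9 ± 6.46% after anti-PD-1 (n = 15) and 29.5 ± 10.7% after vehicle (n = 14). No difference passed (permutation test, adjusted p = 0.35 for AC484 against vehicle and 0.52 for the other 2). Within index set 2, the share was 26.7% in 10 anti-PD-1 tumours and 41.4% in 2 vehicle tumours (exact permutation p = 0.015, the smallest that 66 splits allow). This was 1 of 16 within-set tests, and with index set as a block the difference of -14.6 had an adjusted p of 0.22 by the exact permutation test.

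The most shared Trbv1 CDR3s were led by the sequence that was also the largest. The printed sequences are those of the 5 CDR3s in most tumours that have at most 14 residues, each with its whole germline end.

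Trbj1-1, in 21 tumours: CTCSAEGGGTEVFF
Trbj2-7, in 10 tumours: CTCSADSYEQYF
Trbj1-3, in 7 tumours: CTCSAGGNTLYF

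The first was found in 8 of 15 AC484 tumours with 16 to 1983 reads, in 10 of 15 anti-PD-1 tumours with 2 to 30068 reads and in 3 of 14 vehicle tumours with 1 to 2 reads. It lay in all 12 libraries of index set 3, the set of anti-PD-1 tumour 14, in 6 of 12 libraries of set 2, 1 of 8 of set 4 and 2 of 12 of set 1. Outside tumour 14 its highest counts were 1983 in AC484 tumour 3, 1692 in anti-PD-1 tumour 9, 1080 in AC484 tumour 2 and 796 in anti-PD-1 tumour 4. After removal of counts under 1% of its largest, 6 tumours kept it.

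Presence across an index set was common for abundant chains. Among 97 other TRB CDR3s with at least 10000 reads in a tumour, the median was found in 71.4% of the other libraries of the same set and in 9.38% of libraries of other sets, and 95 of 97 were found in a larger share of the same set. For the most shared Trbv1 CDR3, these values were 100% and 28.1%. Whether its low counts come from carry-over between libraries or from T cells of those tumours was not tested.

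**Figure D5:**
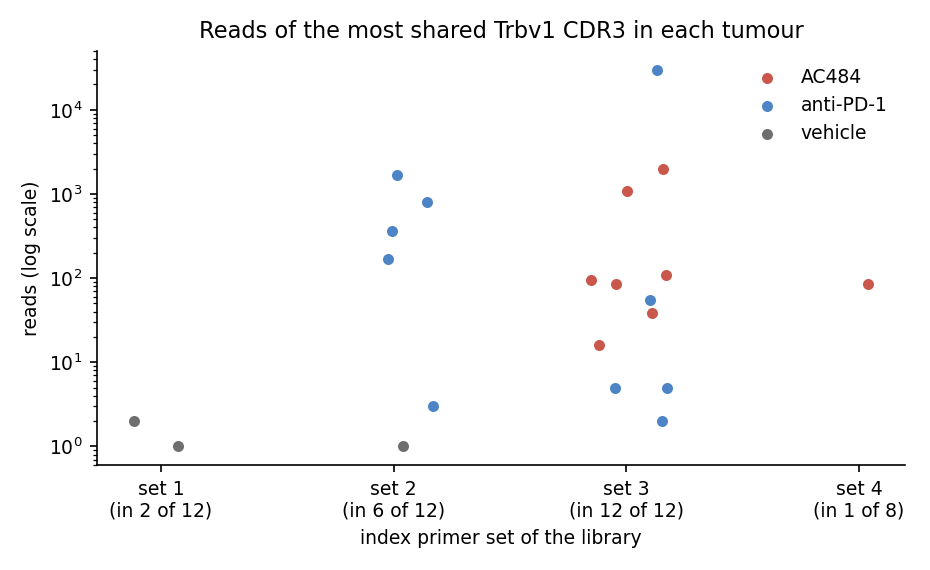
Reads of the Trbv1 CDR3 found in 21 tumours, on a log scale, in each library that holds it, by index primer set. Points are tumours coloured by treatment, and the labels give how many libraries of a set hold it. All 12 libraries of set 3 do, and the tumour with 30068 reads is one of them.

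The Trbj2-7 CDR3 had 415 reads over 10 tumours, 295 of them in anti-PD-1 tumour 1, and was present in 4 AC484, 4 anti-PD-1 and 2 vehicle tumours. The Trbj1-3 CDR3 had 2419 of its 2426 reads in vehicle tumour 2 and 1 or 2 reads in each of 6 other tumours, so that 1 tumour kept it after removal of counts under 1%. It was 1 of 2 CDR3s tied at 7 tumours. The remaining 2 of the 5 had 15 residues. Of these, a Trbj2-1 CDR3 had 90 reads over 9 tumours, 6 AC484, 2 anti-PD-1 and 1 vehicle, with at most 30 reads in any. The other, with Trbj1-4, had 65 reads over 5 AC484 and 4 anti-PD-1 tumours, with at most 12 in any and none in vehicle tumours.

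No Trbv1 CDR3 passed the test of presence between treatments. Of 274 TRB CDR3s found in at least 10 tumours, 2 were Trbv1, and Fisher's exact test on tumours with and without each called neither. The Trbj1-1 CDR3 had an unadjusted p under 0.05 in 1 comparison, anti-PD-1 against vehicle (Fisher's exact test, p = 0.025), where 70 of the 274 CDR3s did. The Trbj1-1 CDR3 was found in 8 of 15 AC484 and 3 of 14 vehicle tumours (Fisher's exact test, adjusted p = 0.22), where 29.9% of the 274 were called. Between 8 of 15 AC484 and 10 of 15 anti-PD-1 tumours the adjusted p was 0.93 (Fisher's exact test, 1.46% called), and between 10 of 15 anti-PD-1 and 3 of 14 vehicle tumours it was 0.15 (6.57% called). For the Trbj2-7 CDR3 the exact adjusted p was 0.78, 1.0 and 0.81.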

How the data were processed

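TCRα and TCRβ transcripts were captured from bulk tumour RNA with the SMARTer Mouse TCR a/b kit, sequenced on a MiSeq and assembled by the authors with MiXCR, and the submitters' notes name mm10. The deposited values are counts of reads for each amino acid CDR3 in each tumour, not scaled for depth, with both chains together and no V gene, chain, nucleotide or molecular identifier. Reads therefore count PCR copies, and draws and intervals cover counting error only. A deposited column of other content, the index primer names, gave the sets. No column of per-sample values was left unmapped.

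TRB was taken as CDR3s with 1 of the 12 endings (70.2% of 8976451 reads), Trbv1 as those starting CTC, and other start classes by their longest germline match (3 residues or more) among 22 Trbv genes (GENCODE, GRCm38). Measures of each tumour (8) gave 24 two-sided permutation tests (100000 resamples, exact where fewer splits exist, smallest p 1e-05), and 14 within-tumour quantities gave sign-flip tests, each family with Benjamini-Hochberg adjustment. The statistics section of the study names an unpaired t-test, used as an alternative. Usage was tested with edgeR 4.0.16 (quasi-likelihood, TMM, all 44 tumours) on classes with at least 100 distinct CDR3s, with DESeq2 1.42.0 as an alternative. Near-copies, 1 edit from a CDR3 with at least 100 times the reads, numbered 6. Named were all 12 Trbj genes, the 2 start classes most like Trbv1 by Spearman's rho, the 5 CDR3s in most tumours, the largest by share of TRB reads in each group, and public ones that passed the test of presence. Tests were tried on simulated data. Members and lists were chosen with earlier results of these data known, and mean log2 reads per CDR3, J endings of 4 residues, total distinct TRB CDR3s at an equal total and index set as a block for the measures were added after seeing the data. Labels number the tumours of a group without saying how the animals were housed, and p-values measure the spread between tumours.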

Additional observations from a re-analysis of the deposited data

How the results depend on the processing

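Of 425 values under an alternative other than leaving out 1 tumour, 363 kept their direction and their side of the threshold. Of 792 values that left out 1 tumour, 739 did. The numbers of distinct Trbv1 CDR3s in AC484 and anti-PD-1 tumours against vehicle kept their calls in every fit that left out 1 tumour. Causes of the changes below were not tested.

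The share of distinct TRB CDR3s that was Trbv1, for AC484 minus anti-PD-1, passed at -0.754 without single-read CDR3s, -0.668 without near-copies, -0.716 with all reads and -0.732 with both chains drawn to 1 total. It ran from -0.747 to -0.572 with 1 tumour left out, where 9 of 30 fits passed. With all reads it was 0.2 for AC484 minus vehicle and passed at 0.916 for anti-PD-1 minus vehicle, and the shared percentage passed at -9.49 for AC484 minus vehicle. With both chains drawn to 1 total, AC484 minus anti-PD-1 was -0.723 distinct Trbv1 CDR3s.

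The largest CDR3's share for AC484 minus vehicle no longer passed at -18.3 with a germline Ser also required, -12.1 with J endings of 4 residues and -23.4 with index set as a block, and ran from -22.1 to -16.8 with 1 tumour left out. The germline end for AC484 minus vehicle was -1.19 without single reads, -1.91 with a germline Ser also required, -2.78 weighted by reads, -0.131 at an equal total and -1.46 with index set as a block, and -0.694 to 1.69 with 1 tumour left out. For anti-PD-1 minus vehicle it was 0.0233 with carry-over removed and -2.38 to 0.883 with 1 tumour left out. Length for AC484 minus anti-PD-1 was 0.00365 with carry-over removed, 0.00228 with J endings of 4 residues and -0.0216 to 0.0154 with 1 tumour left out.

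With index set as a block, distinct Trbv1 CDR3s no longer passed at 27.3 for AC484 and 19.8 for anti-PD-1 against vehicle. Length was -0.213 for AC484 and -0.15 for anti-PD-1 against vehicle, the share of reads -1.84 for anti-PD-1 minus vehicle, and the shared percentage 1.76 for AC484 minus anti-PD-1. Anti-PD-1 and vehicle share set 2 alone, and AC484 and anti-PD-1 share set 3 alone. The values within those sets are therefore the same by construction (19.8, -0.15, -1.84 and 1.76) and give no second check. The shared percentage for anti-PD-1 minus vehicle was -14.6 within set 2. Leaving out 1 tumour gave -0.631 to 0.911 for the share of reads in anti-PD-1 minus vehicle (below 0 without anti-PD-1 tumour 14), -2.76 to 0.84 for Trbj2 in AC484 minus vehicle (above 0 without vehicle tumour 13), and -7.68 to -4.89 for the shared percentage (passing without vehicle tumour 1).

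In edgeR, the log2 fold change of Trbv1 for AC484 over anti-PD-1 no longer passed at -0.14 with an equal total and -0.11 with index set as a block, and ran from -0.21 to -0.15 with 1 tumour left out. For AC484 over vehicle it was -0.03 with no minimum and -0.04 to 0.04 with 1 tumour left out. For anti-PD-1 over vehicle it ran from 0.12 to 0.24 and passed without anti-PD-1 tumour 13 or vehicle tumour 8. Trbv1 with Trbj2-1 was -0.14 for anti-PD-1 over vehicle with index set as a block.

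Against other TRB, the Trbj2 share passed in AC484 tumours only (-3.67) and anti-PD-1 tumours only (-4.17), as did Trbj2-7 in both (-2.29 and -4.04) and Trbj1-5 (0.903), Trbj2-1 (-1.65) and Trbj2-3 (1.38) in AC484 tumours only. In vehicle tumours only nothing passed, including length (0.246), log2 reads per CDR3 (-0.0731), Trbj1-2 (-3.83), Trbj1-4 (2.7) and Trbj1-6 (0.789). Without single-read CDR3s Trbj2-1 (-1.98) and Trbj2-3 (2.16) passed. Signs turned in AC484 tumours only for Trbj1-3 (-0.256), Trbj2-2 (-0.08) and Trbj2-4 (0.379), in anti-PD-1 tumours only for Trbj1-3 (-0.934), in vehicle tumours only for Trbj1-1 (-1.25) and Trbj2-7 (1.62), without single reads for Trbj1-3 (-0.716), and weighted by reads for Trbj1-6 (-0.482) and Trbj2-3 (-0.189). With carry-over removed, 14.4% of other TRB CDR3s were shared.

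The labels give the same replicate numbers to the 3 groups. Same-numbered tumours deviated together with a median r of 0.14 for AC484 and vehicle, 0.046 for AC484 and anti-PD-1 and -0.016 for anti-PD-1 and vehicle, and 7, 5 and 3 of 14 numbers were over 0.1, so the number was not taken as a pairing. With a replicate block, the largest CDR3's share for AC484 minus vehicle was -18.8 (adjusted p = 0.13). In edgeR with the replicate block, Trbv1 was -0.16 for AC484 over anti-PD-1 (adjusted p = 0.052) and -0.01 for AC484 over vehicle. Vehicle libraries held as few as 6 Trbv1 CDR3s, which limits shares in that group.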

Other observations

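Besides the members, 924 entries of 859 distinct CDR3s started with Cys-Thr-Cys but lacked the 12 endings, with 23097 reads. They held 0.0777%, 0.133% and 0.845% of all reads at the lowest, median and highest after AC484, 0.0761%, 0.195% and 0.56% after anti-PD-1, and 0%, 0.282% and 1.14% after vehicle. The largest had 6239 reads in AC484 tumour 4, or 0.824% of the reads of both chains there.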
